A study of Mus musculus with 4 samples.

Results

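Messenger RNA of 50 splicing factor and hnRNP genes was followed in mouse oocytes before and after meiotic maturation. The genes were taken by symbol, as those that begin with Srsf or Sfrs and a digit (SR proteins, 12 genes), Snrp (snRNP proteins, 12), Sf3a or Sf3b and a digit (SF3 subunits, 8) or Hnrnp (hnRNP proteins, 18). They are 50 of the 23309 gene symbols in the files, and 49 of them reached a mean of at least 1 FPKM over the libraries. Srsf12, an SR protein gene, was listed at 0 in all 4 libraries and did not. The 4 libraries were an MII library labelled Erk-/-, a wild-type MII library, an Erk-/- GV library and a wild-type GV library. GV is the fully grown oocyte arrested before meiosis resumes, with its nucleus (germinal vesicle) intact, and MII is the mature egg at metaphase of the second division. All came from ICR females aged 21 to 23 days, with 60 cells pooled per library. PMSG and hCG, hormones that drive follicle growth and ovulation, are named for the collection without saying which was given for which library. The labels do not say how Erk was deleted or in which cells, the treatment text names Btg4-/- females, and the design text speaks of single oocytes, so genotype and stage rest on the sample titles.

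Introns are removed from pre-mRNA by the spliceosome, which assembles from small nuclear ribonucleoprotein particles (snRNPs). Most spliceosomal snRNPs carry a ring of Sm proteins on their RNA, and the U2 snRNP also holds the SF3a and SF3b complexes, which bind the branch point. SR proteins have RNA recognition motifs and a tail rich in arginine and serine, and most often promote the use of the exons they bind. hnRNP proteins coat new transcripts, often oppose SR proteins at splice sites, and several also act in the cytoplasm on mRNA stability and translation. A fully grown oocyte makes little new RNA and its chromatin condenses as meiosis resumes. The amount of an mRNA at MII is therefore thought to depend mainly on how stored transcripts are kept or removed.

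Levels are in FPKM, which corrects fragment counts for the length of the transcript and the size of the library. They do not give mRNA per oocyte, so a higher FPKM at MII need not mean more of that mRNA in the cell. Fewer cells with a transcript cannot be told apart from less of it per cell. With 1 library per group no difference below has a replicate check, no test was possible and no p-value is given. A gene was counted as higher or lower when its ratio on the log2(FPKM + 1) scale was at least 2-fold, while a fold printed for 1 gene divides the FPKM themselves, with nothing added. The deposited bounds of each FPKM are given where they bear on a result, and they describe uncertainty within a library. FPKM summed to 401160 to 453226 per library, and its read depth is unknown. Genes at 10 FPKM or more numbered 4397 in the MII library labelled Erk-/-, 3570 in wild-type MII, 5543 in Erk-/- GV and 5682 in wild-type GV. The median-of-ratios scaling used below divided these libraries by 1.07, 0.741, 1.23 and 1.31, in the same order. Wild-type MII was the lowest in both respects, and it enters wild-type maturation and the genotype comparison at MII. Mapk3, which encodes ERK1, had 34.3 FPKM in the MII library labelled Erk-/- and 25.7 in wild-type MII, against 52.3 in Erk-/- GV and 333 in wild-type GV. The label of the first of these libraries is therefore not borne out by Mapk3, and every genotype direction at MII rests on that label alone. All 10 oocyte markers were above 0 in every library, while 7 to 10 of the 12 granulosa and cumulus markers were listed at 0, with a summed level of 12.5 to 22.6 FPKM. Of 6 blood and stroma markers only Pecam1 was above 0, and it had 25.6 to 64.3 FPKM.

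The members spanned a wide range of levels. The snRNP genes had the largest summed levels, with 1455 FPKM in the MII library labelled Erk-/-, 1574 in wild-type MII, 1138 in Erk-/- GV and 1502 in wild-type GV. Summed hnRNP levels were 1099.5 and 1295 FPKM at MII (labelled Erk-/- and wild type) and 812 and 579 FPKM at GV. The SR genes summed to 231, 363, 223 and 196 FPKM and the SF3 genes to 504, 544, 468 and 517 FPKM in the same order of libraries. All 50 genes together made up 0.794% of the summed FPKM in the MII library labelled Erk-/-, 0.941% in wild-type MII, 0.628% in Erk-/- GV and 0.616% in wild-type GV. In the wild type this summed share was thus larger at MII than at GV. The estimates of some genes carry an added doubt, because 12 of the 50 genes had an FPKM larger than the upper bound given with it in at least 1 library, and 5 to 8 of the 12 snRNP genes were affected in each library. No bounds are quoted for such values.

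**Figure D1:**
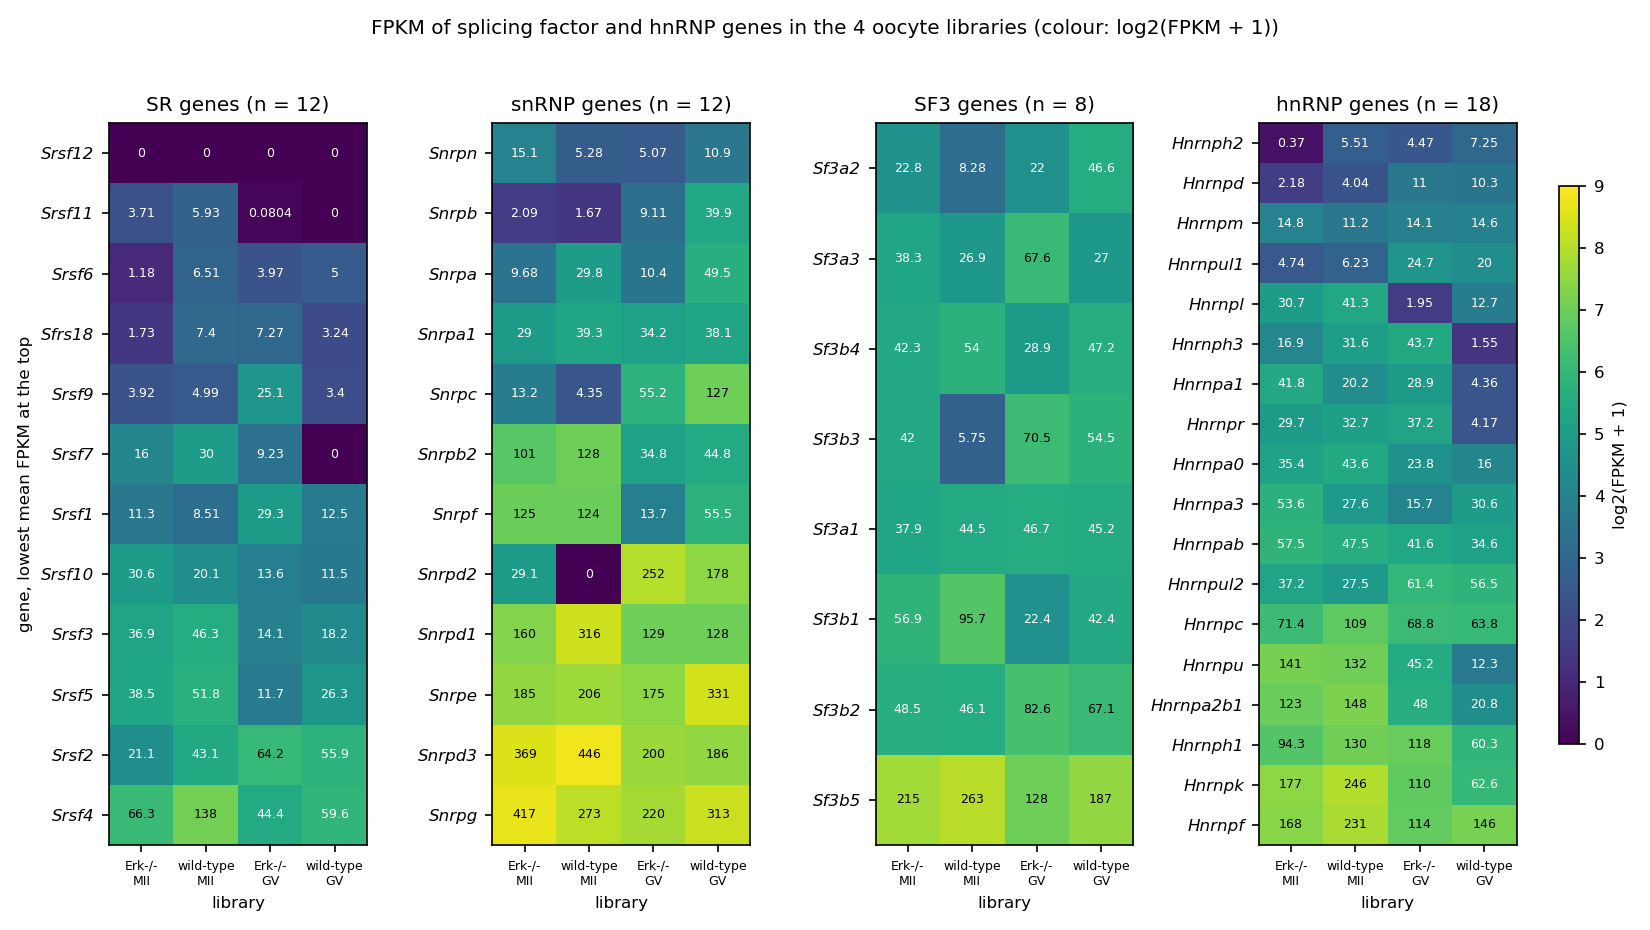
FPKM of each gene (rows, lowest mean at the top of each panel) in the 4 libraries (columns, 1 library each), with the value printed in the cell and the colour giving log2(FPKM + 1). Snrpd2 is listed at 0 in wild-type MII beside 178 FPKM in wild-type GV, and Hnrnph3 stands at 1.55 FPKM in wild-type GV beside 43.7 in Erk-/- GV.

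In the libraries labelled Erk-/-, the members split evenly over maturation. At least 2-fold higher at MII were 12 of 49 (background 22.9% of all genes) and at least 2-fold lower were 12 (background 35.6%), with a median log2 ratio of 0.08 over the members and -0.26 over all 9990 genes. Among hnRNP genes 4 of 18 were higher and 4 lower, and among SR genes 4 of 11 were higher and 5 lower. The snRNP genes had 3 of 12 higher and 3 lower, and the SF3 genes 1 of 8 higher and none lower. Under median-of-ratios scaling, 5 snRNP genes were higher in place of 3, and the other class counts were the same. The medians were 0.26 for hnRNP, 0.57 for SR, 0.20 for snRNP and -0.12 for SF3 genes. The last of these turned positive under this scaling (0.07), where the all-gene median shifted by 0.18, and the SR median was -1.19 over the 9 SR genes above 0 in every library.

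In wild-type oocytes, 12 of 18 hnRNP genes and 9 of 11 SR genes had a higher level at MII than at GV, against 3358 of all 9990 genes. The median over all genes was below 0, also under scaling (-0.30). The median log2 ratio was 0.93 over the 18 hnRNP genes and 0.95 over the 11 SR genes (0.75 over the 9 above 0 in every library), against -0.97 over all genes. Of the 49 members, 18 were at least 2-fold higher, against a background of 20.6%, and 8 were at least 2-fold lower, against a background of 49.6%. By class, 9 of 18 hnRNP genes were higher and 3 lower, 4 of 11 SR genes were higher and none lower, 4 of 12 snRNP genes were higher and 3 lower, and 1 of 8 SF3 genes was higher and 2 lower. The medians of the snRNP and SF3 genes were -0.44 and -0.01, and both turned positive (0.38 and 0.79) under scaling, where the all-gene median shifted by 0.67. By class the scaled counts were 12 hnRNP genes higher and none lower, 9 SR genes higher and none lower, 4 snRNP genes higher and 3 lower, and 3 SF3 genes higher and 2 lower. Under that scaling 28 members were higher and 5 lower, against 29.6% and 40.4% of all genes. Of the members past 2-fold, 84.8% were thus higher, and 69.2% as deposited. For all genes the shares were 42.3% scaled and 29.3% as deposited. The maturation ratios of the genotypes share no library, so their calls could be set side by side, and 8 members were higher in both and 5 lower in both (16.3% and 10.2% of members, against 11.4% and 26.7% of all genes). Scaled, these counts were 11 and 3 (22.4% and 6.12% of members, against 15.6% and 21.6% of all genes).

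**Figure D2:**
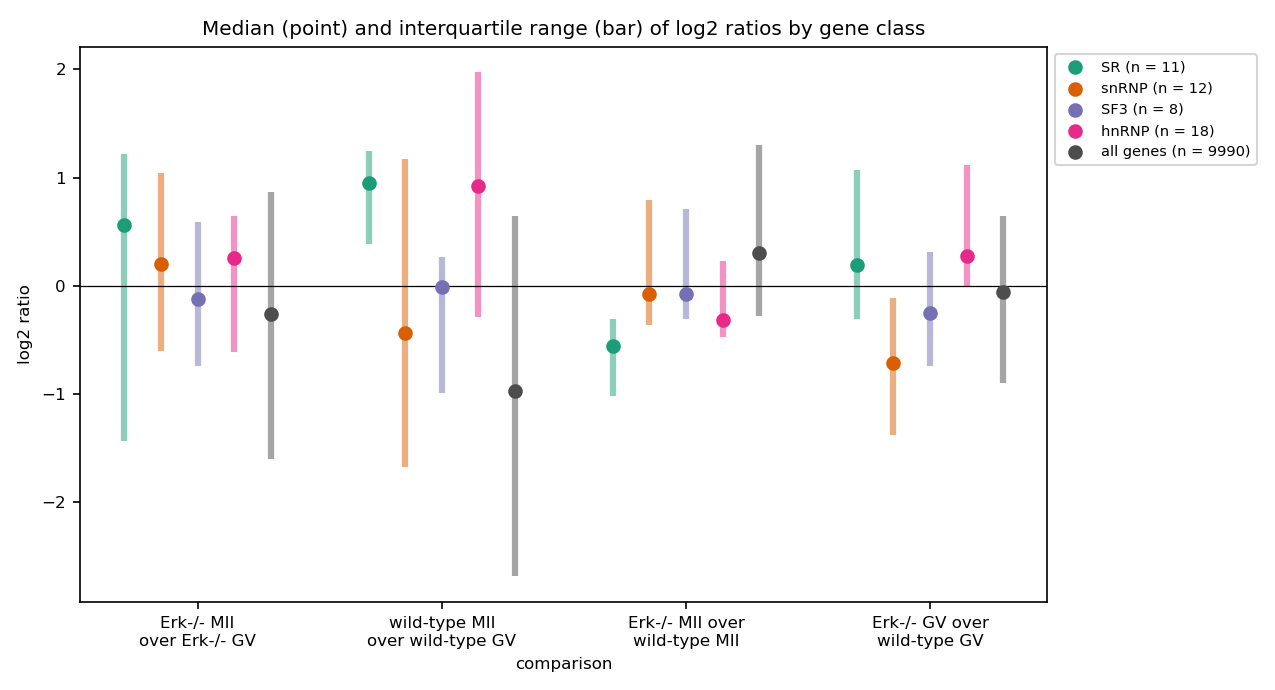
Median (points) and interquartile range (bars) of the log2 ratio of each class and of all 9990 genes, for maturation in the libraries labelled Erk-/- and wild type and for genotype at MII and at GV. In wild-type maturation the hnRNP and SR medians (0.93 and 0.95) stand above the all-gene median of -0.97.

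Among members above 0 in both wild-type libraries, the 6 highest wild-type maturation ratios belonged to hnRNP genes (Hnrnph3, Hnrnpu, Hnrnpa2b1, Hnrnpr, Hnrnpa1 and Hnrnpk). Hnrnpu, whose protein (also called scaffold attachment factor A) binds RNA and chromatin (mm9 chromosome 1, 180258431 to 180267915), had 141 FPKM in the MII library labelled Erk-/- and 132 in wild-type MII, against 45.2 in Erk-/- GV and 12.3 in wild-type GV. Its bounds were 123 to 133 in wild-type MII and 10.9 to 13.8 in wild-type GV, and the level at MII was 3.13-fold higher in the libraries labelled Erk-/- and 10.7-fold higher in wild type. Hnrnpa2b1, which encodes a reader of exon and transport signals (chromosome 6, 51410434 to 51419893), had 123 and 148 FPKM at MII in labelled Erk-/- and wild type, and 48.0 and 20.8 FPKM at GV in Erk-/- and wild type. It was 2.55-fold higher at MII in the libraries labelled Erk-/- and 7.11-fold higher in wild type. For both genes the MII libraries lay above both GV libraries, and wild-type GV was the lowest of the 4. Hnrnpl, whose protein binds CA-rich RNA (chromosome 7, 29595909 to 29607285), had 30.7 FPKM in labelled Erk-/- MII, 41.3 in wild-type MII, 1.95 in Erk-/- GV and 12.7 in wild-type GV. Here Erk-/- GV was the lowest library, and the maturation ratio was 15.7 in the libraries labelled Erk-/- and 3.25 in wild type.

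Hnrnpr, Hnrnpk, Hnrnpa1, Hnrnpa0 and Hnrnph1 passed 2-fold higher at MII in wild type and stayed within 2-fold in the libraries labelled Erk-/-, and each had its lowest level in wild-type GV. Hnrnpr, which encodes a close relative of hnRNP Q, had 29.7 FPKM in the MII library labelled Erk-/- and 32.7 in wild-type MII, against 37.2 in Erk-/- GV and 4.17 in wild-type GV. Wild-type GV stood apart from the remaining libraries, with wild-type MII 7.84-fold higher. Hnrnpk, whose protein binds C-rich RNA and regulates translation, had 177 and 246 FPKM at MII in labelled Erk-/- and wild type, and 110.0 and 62.6 FPKM at GV in Erk-/- and wild type. Hnrnpa1, a repressor of exon inclusion, had 41.8 FPKM in labelled Erk-/- MII, 20.2 in wild-type MII, 28.9 in Erk-/- GV and 4.36 in wild-type GV, with bounds of 17.5 to 22.9 in wild-type MII and 3.17 to 5.57 in wild-type GV. It has many processed pseudogenes, and how reads that map to several places were treated is not given in the sources used here. Hnrnpa0, an AU-rich element binding protein gene, had 35.4 FPKM in the MII library labelled Erk-/- and 43.6 in wild-type MII, against 23.8 in Erk-/- GV and 16.0 in wild-type GV. Hnrnph1, which encodes a binder of G-rich RNA, had 94.3 and 129.8 FPKM at MII in labelled Erk-/- and wild type, and 118 and 60.3 FPKM at GV in Erk-/- and wild type. Their maturation ratios were 1.49 and 0.799 in the libraries labelled Erk-/-, against 2.71 and 2.15 in wild type. Hnrnph1 and Hnrnph2 are close paralogs, so reads could have been split between them. With 1 library per group, whether these ratios differ between the genotypes was not tested.

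Hnrnph3 was called in opposite directions over maturation in the genotypes, the only member so called as deposited and 1 of 4 under scaling, with Sfrs18, Srsf6 and Srsf9. Higher in wild type and lower in the libraries labelled Erk-/- were 2.04% of members and 1.79% of all genes (8.16% and 2.22% under scaling). The reverse was called in 0 members, against 4.47% of all genes (3.45% under scaling). Hnrnph3 encodes a smaller relative of hnRNP H (chromosome 10, 62477412 to 62486597). It had 16.9 FPKM in labelled Erk-/- MII, 31.6 in wild-type MII, 43.7 in Erk-/- GV and 1.55 in wild-type GV. Its bounds were 15.04 to 18.7 in the MII library labelled Erk-/-, 29.0 to 34.2 in wild-type MII, 40.1 to 47.3 in Erk-/- GV and 1.001 to 2.05 in wild-type GV. The highest and the lowest of the 4 values are thus both GV libraries. The level at MII was 2.59-fold lower in the libraries labelled Erk-/- and 20.4-fold higher in wild type.

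Hnrnpd, which encodes AUF1, a protein that binds AU-rich elements and speeds mRNA decay in many cells, had 2.18 FPKM in the MII library labelled Erk-/- and 4.04 in wild-type MII, against 11.05 in Erk-/- GV and 10.3 in wild-type GV. Hnrnpul1, a relative of hnRNP U, had 4.74 and 6.23 FPKM at MII in labelled Erk-/- and wild type, and 24.7 and 20.0 FPKM at GV in Erk-/- and wild type. In both genes each MII library lay below each GV library. Hnrnpd and Hnrnpul1 were 5.07-fold and 5.21-fold lower at MII in the libraries labelled Erk-/-, and 2.56-fold and 3.22-fold lower in wild type. Hnrnpul2, of the same subfamily, had 37.2 FPKM in labelled Erk-/- MII, 27.5 in wild-type MII, 61.4 in Erk-/- GV and 56.5 in wild-type GV, 2.06-fold lower at MII in wild type. None of these 3 wild-type calls held under median-of-ratios scaling (log2 ratios -0.46, -0.79 and -0.21). The abundant Hnrnpf, which binds G runs, had 168 FPKM in the MII library labelled Erk-/- and 231 in wild-type MII, against 114 in Erk-/- GV and 146 in wild-type GV. Hnrnpc, whose protein packages nascent RNA, had 71.4 and 109 FPKM at MII in labelled Erk-/- and wild type, and 68.8 and 63.8 FPKM at GV in Erk-/- and wild type. Hnrnpab, which encodes a relative of AUF1, had 57.5 FPKM in labelled Erk-/- MII, 47.5 in wild-type MII, 41.6 in Erk-/- GV and 34.6 in wild-type GV. Hnrnpm, a splicing regulator gene, had 14.8 FPKM in the MII library labelled Erk-/- and 11.2 in wild-type MII, against 14.1 in Erk-/- GV and 14.6 in wild-type GV. As deposited, these 4 genes were within 2-fold at maturation in both genotypes, and under scaling Hnrnpf, Hnrnpc and Hnrnpab were called higher in wild type (log2 ratios 1.48, 1.58 and 1.25). Hnrnpa3, a relative of hnRNP A2/B1, had 53.6 and 27.6 FPKM at MII in labelled Erk-/- and wild type, and 15.7 and 30.6 FPKM at GV in Erk-/- and wild type, 3.41-fold higher at MII in the libraries labelled Erk-/- and within 2-fold in wild type (ratio 0.904). Hnrnph2, the paralog of Hnrnph1 on the X chromosome, had 0.370 FPKM in labelled Erk-/- MII, 5.51 in wild-type MII, 4.47 in Erk-/- GV and 7.25 in wild-type GV, with the MII library labelled Erk-/- far below the others.

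**Figure D3:**
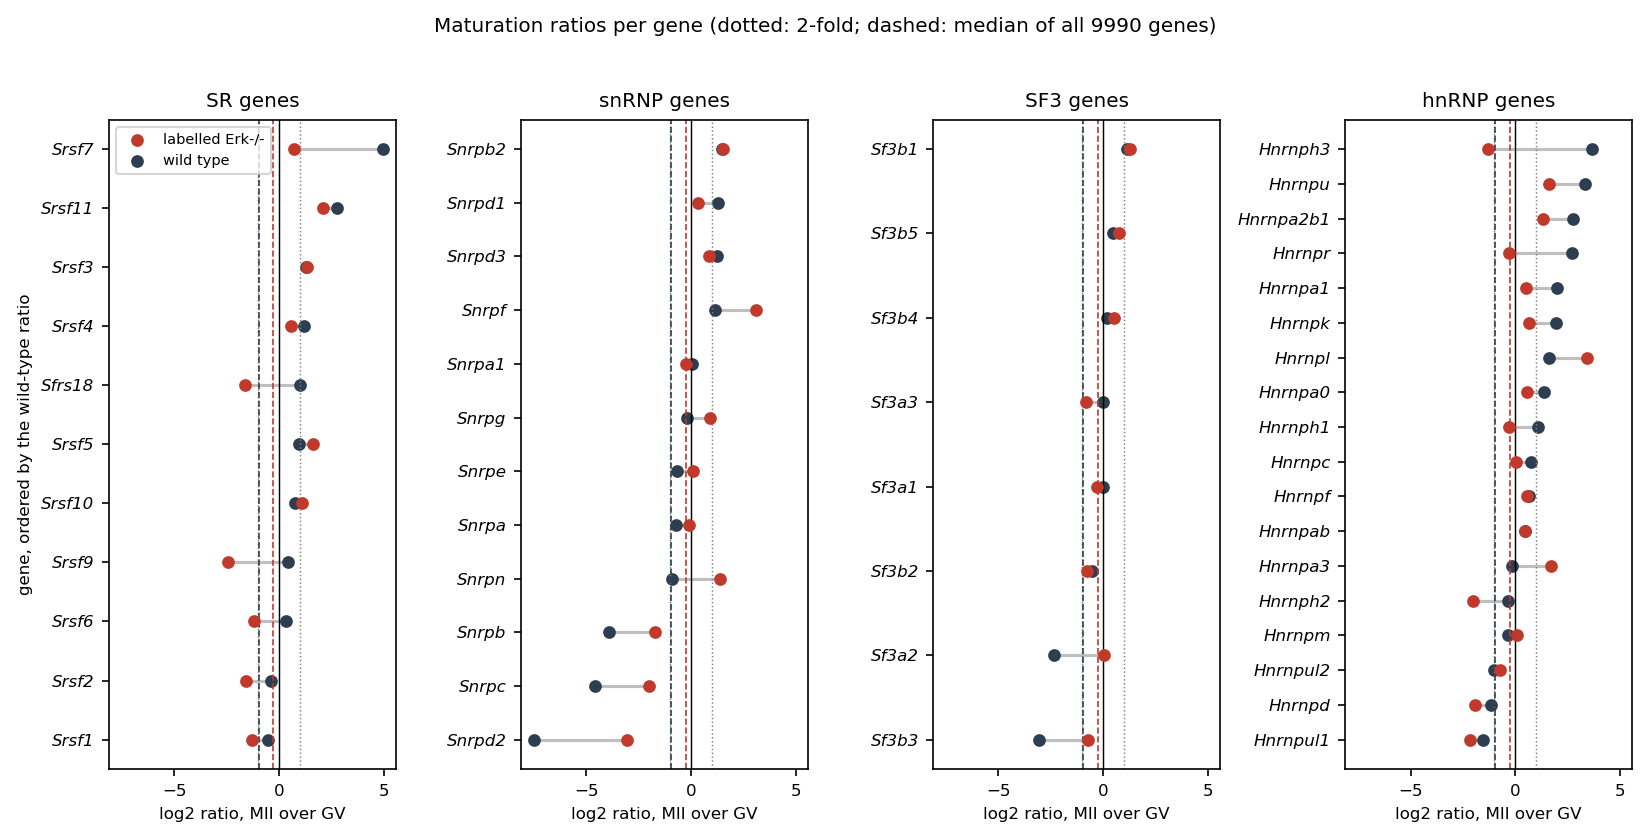
Log2 ratio of MII over GV for each of the 49 genes, with the libraries labelled Erk-/- in red and wild type in dark blue, dotted lines at 2-fold and dashed lines at the medians of all genes (-0.26 and -0.97). Hnrnph3 has its points on opposite sides of 0 (-1.32 and 3.68), and the points of Srsf3, Snrpb2 and Sf3b1 lie nearly together above 1.

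Among SR genes, Srsf3, Srsf4, Srsf7 and Srsf11 were called higher at MII in wild type. Srsf3 encodes the smallest SR protein, an adaptor for mRNA export that is needed for normal splicing in mouse oocytes (chromosome 17, 29169605 to 29180317). It had 36.9 FPKM in the MII library labelled Erk-/- and 46.3 in wild-type MII, against 14.1 in Erk-/- GV and 18.2 in wild-type GV, and the maturation ratios of the genotypes were close (2.62 and 2.54). Srsf4, the SR gene of highest FPKM in 3 of the 4 libraries, had 66.3 and 138 FPKM at MII in labelled Erk-/- and wild type, and 44.4 and 59.6 FPKM at GV in Erk-/- and wild type. Its ratio of MII over GV was 1.49 in the libraries labelled Erk-/- and 2.31 in wild type. Srsf7, which encodes an SR protein with a zinc knuckle (chromosome 17, 80599420 to 80606645), had 16.0 FPKM in the MII library labelled Erk-/-, 30.01 in wild-type MII and 9.23 in Erk-/- GV, and was listed at 0 in wild-type GV. Srsf11, which encodes an SR-related nuclear protein, had 3.71 and 5.93 FPKM in these MII libraries, 0.0804 in Erk-/- GV, and was also listed at 0 in wild-type GV. A listed 0 may stand for an estimate that failed, and no fold is formed with it. The wild-type calls of Srsf7 and Srsf11 rest on it. Srsf5, a regulator of alternative exons, had 38.5 FPKM in labelled Erk-/- MII, 51.8 in wild-type MII, 11.7 in Erk-/- GV and 26.3 in wild-type GV. Srsf10, a splicing repressor when dephosphorylated, had 30.6 FPKM in the MII library labelled Erk-/- and 20.1 in wild-type MII, against 13.6 in Erk-/- GV and 11.5 in wild-type GV. As deposited, Srsf5 and Srsf10 were called higher in the libraries labelled Erk-/- (3.30-fold and 2.25-fold) and missed the call in wild type (1.97 and 1.74), which they passed under scaling (log2 ratios 1.76 and 1.53).

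The other 5 SR genes were lower at MII in the libraries labelled Erk-/- and not called in wild type as deposited. Under scaling, Sfrs18, Srsf9 and Srsf6 were called higher in wild type (log2 ratios 1.67, 1.11 and 1.03). Srsf1, the founding member of the family, had 11.3 and 8.51 FPKM at MII in labelled Erk-/- and wild type, and 29.3 and 12.5 FPKM at GV in Erk-/- and wild type. Srsf2, which encodes the nuclear speckle protein SC35, had 21.1 FPKM in labelled Erk-/- MII, 43.1 in wild-type MII, 64.2 in Erk-/- GV and 55.9 in wild-type GV. Of these genes, the libraries labelled Erk-/- had 2.60-fold and 3.03-fold lower levels at MII, against wild-type ratios of MII over GV of 0.683 and 0.771. Srsf9, which encodes a short SR protein close to SRSF1, had 3.92 FPKM in the MII library labelled Erk-/- and 4.99 in wild-type MII, against 25.1 in Erk-/- GV and 3.40 in wild-type GV, with Erk-/- GV standing above the remaining 3 libraries, whose bounds span 2.30 to 6.41 FPKM. Srsf6, a regulator of exon inclusion, had 1.18 and 6.51 FPKM at MII in labelled Erk-/- and wild type, and 3.97 and 5.002 FPKM at GV in Erk-/- and wild type. Sfrs18, a gene for a serine- and arginine-rich nuclear protein now named Pnisr, had 1.73 FPKM in labelled Erk-/- MII, 7.40 in wild-type MII, 7.27 in Erk-/- GV and 3.24 in wild-type GV. Its wild-type ratio of 2.29 came to 0.99 on the log2(FPKM + 1) scale, just short of a call. Srsf1, Srsf2 and Srsf9 were highest in Erk-/- GV, and Srsf6 and Sfrs18 in wild-type MII.

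The snRNP genes did not share a direction, also among the Sm proteins that form 1 ring. Snrpd2 (chromosome 7, 19735187 to 19738075) had 29.1 FPKM in the MII library labelled Erk-/- and was listed at 0 in wild-type MII, against 252 in Erk-/- GV and 178 in wild-type GV. The wild-type call of Snrpd2 rests on this listed 0, which may stand for a failed estimate, and its remaining FPKM lie above their own upper bounds. Its partner in the ring, Snrpd1, had 159.7 FPKM in the MII library labelled Erk-/- and 316 in wild-type MII, against 129 in Erk-/- GV and 128 in wild-type GV, and was 2.46-fold higher at MII in wild type. Snrpd3 had 369 and 446 FPKM at MII in labelled Erk-/- and wild type, and 200.4 and 186 FPKM at GV in Erk-/- and wild type, higher in both MII libraries than in both GV libraries. Snrpb (chromosome 2, 129997372 to 130005100) had 2.09 FPKM in labelled Erk-/- MII, 1.67 in wild-type MII, 9.11 in Erk-/- GV and 39.9 in wild-type GV, 4.36-fold lower at MII in the libraries labelled Erk-/- and 23.8-fold lower in wild type. Its paralog Snrpn, an imprinted gene whose product can stand in for SmB, had 15.1 FPKM in the MII library labelled Erk-/- and 5.28 in wild-type MII, against 5.07 in Erk-/- GV and 10.9 in wild-type GV, 2.98-fold higher at MII in the libraries labelled Erk-/- and not called in wild type (ratio 0.483, and -0.93 on the log2(FPKM + 1) scale). Reads of Snrpb and Snrpn could have been split, since their coding sequences are close. Snrpf had 125 and 124 FPKM at MII in labelled Erk-/- and wild type, and 13.7 and 55.5 FPKM at GV in Erk-/- and wild type, so the MII libraries were equal within their bounds while Erk-/- GV was low (ratios of MII over GV 9.12 and 2.24 in labelled Erk-/- and wild type). The ring genes Snrpe and Snrpg were within 2-fold at maturation in both genotypes as deposited, and Snrpg passed it under scaling in the libraries labelled Erk-/- (log2 ratio 1.12). Snrpe had 185 FPKM in labelled Erk-/- MII, 206 in wild-type MII, 175 in Erk-/- GV and 331 in wild-type GV. Snrpg had 417 FPKM in the MII library labelled Erk-/- and 273 in wild-type MII, against 219.6 in Erk-/- GV and 313 in wild-type GV. Both have processed pseudogenes that could share their reads. In Snrpd1, Snrpd3, Snrpe and Snrpg every FPKM lies above its own upper bound, as in Snrpb does that of wild-type GV. Of the 7 Sm ring genes, 1 was higher and 2 lower at MII in the libraries labelled Erk-/-, and 3 were higher and 2 lower in wild type. Scaled, 3 were higher and 2 lower in both.

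The particle-specific snRNP proteins also divided. Snrpc, which encodes a U1 protein that stabilises pairing with the start of the intron (chromosome 17, 27977032 to 27988912), had 13.2 and 4.35 FPKM at MII in labelled Erk-/- and wild type, and 55.2 and 127 FPKM at GV in Erk-/- and wild type. It was 4.19-fold lower at MII in the libraries labelled Erk-/- and 29.2-fold lower in wild type. Its FPKM in both GV libraries lie above their own upper bounds. Snrpa, the U1 protein that binds a loop of the U1 RNA, had 9.68 FPKM in labelled Erk-/- MII, 29.8 in wild-type MII, 10.4 in Erk-/- GV and 49.5 in wild-type GV, so both libraries labelled Erk-/- lay below both wild-type libraries. Of the U2 proteins, Snrpb2 had 101 FPKM in the MII library labelled Erk-/- and 128 in wild-type MII, against 34.8 in Erk-/- GV and 44.8 in wild-type GV. It was 2.89-fold and 2.85-fold higher at MII in the labelled Erk-/- and wild-type pairs. Its FPKM lie above their own upper bounds in every library but Erk-/- GV. Snrpa1, its partner on the U2 RNA, had 29.0 and 39.3 FPKM at MII in labelled Erk-/- and wild type, and 34.2 and 38.1 FPKM at GV in Erk-/- and wild type, within 2-fold in each maturation pair.

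Of the SF3 genes, 5 of 8 (62.5%) were within 2-fold at maturation in both genotypes as deposited, against 15.7% of all genes. Under scaling it was 3 of 8 (37.5%, against 15.8% of all genes), as Sf3b4 and Sf3b5 passed 2-fold higher in wild type (log2 ratios 1.002 and 1.31). The genes called as deposited were Sf3b1, Sf3b3 and Sf3a2. Sf3b1 encodes the large scaffold of SF3b that encloses the branch point (chromosome 1, 55042013 to 55084322). It had 56.9 FPKM in labelled Erk-/- MII, 95.7 in wild-type MII, 22.4 in Erk-/- GV and 42.4 in wild-type GV, 2.54-fold and 2.25-fold higher at MII in the labelled Erk-/- and wild-type pairs. Sf3b3, the subunit that contacts Sf3b1 in the complex (chromosome 8, 113334392 to 113370703), had 42.0 FPKM in the MII library labelled Erk-/- and 5.75 in wild-type MII, against 70.5 in Erk-/- GV and 54.5 in wild-type GV. Its bounds of 4.96 to 6.52 in wild-type MII lay below those of the 3 remaining libraries, and the ratio of MII over GV was 0.595 in the libraries labelled Erk-/- and 0.105 in wild type. Sf3a2, a core subunit of SF3a (chromosome 10, 80261480 to 80267667), had 22.8 and 8.28 FPKM at MII in labelled Erk-/- and wild type, and 22.0 and 46.6 FPKM at GV in Erk-/- and wild type. Its ratio of MII over GV was 1.04 in the libraries labelled Erk-/-, and it was 5.63-fold lower at MII in wild type. The member of the class with the highest FPKM in every library was the small subunit gene Sf3b5, with 215 FPKM in labelled Erk-/- MII, 263 in wild-type MII, 128 in Erk-/- GV and 187 in wild-type GV. Each of these values lies above its own upper bound. Sf3b2, whose protein contacts pre-mRNA near the branch point, had 48.5 FPKM in the MII library labelled Erk-/- and 46.1 in wild-type MII, against 82.6 in Erk-/- GV and 67.1 in wild-type GV. Its binding partner Sf3b4 had 42.3 and 54.0 FPKM at MII in labelled Erk-/- and wild type, and 28.9 and 47.2 FPKM at GV in Erk-/- and wild type. Sf3a1 and Sf3a3 encode the remaining SF3a subunits. Sf3a1 had 37.9 FPKM in labelled Erk-/- MII, 44.5 in wild-type MII, 46.7 in Erk-/- GV and 45.2 in wild-type GV. Sf3a3 had 38.3 FPKM in the MII library labelled Erk-/- and 26.9 in wild-type MII, against 67.6 in Erk-/- GV and 27.0 in wild-type GV, with Erk-/- GV the highest library.

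At MII the median member was lower in the library labelled Erk-/- than in wild type, both as deposited and under scaling, while the median over all genes was above 0 as deposited and 0 under scaling. The scaling is built to bring the ratios of all genes towards 0, so this scaled 0 is no separate observation. Of 49 members, 6 were at least 2-fold higher (background 31.4%) and 5 at least 2-fold lower (background 7.43%), and the median log2 ratio was -0.29 against 0.31 for all genes. By class, the median was -0.56 over SR, -0.07 over snRNP, -0.08 over SF3 and -0.31 over hnRNP genes, and each stayed negative under scaling (-1.02, -0.60, -0.60 and -0.81). Scaling shifted the all-gene median by -0.31 and left 2 members higher and 14 lower, against 24.6% and 17.1% of all genes. Of the members past 2-fold, 12.5% were thus higher, and 54.5% as deposited. For all genes these shares were 59.1% scaled and 80.9% as deposited. No SR gene was higher, and 3 of 11 were lower as deposited and 6 under scaling. Of the hnRNP genes 1 of 18 was lower as deposited and 5 under scaling.

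Of the higher members at MII, Snrpd2 had 29.1 FPKM in the library labelled Erk-/- and was listed at 0 in wild type. Its call thus rests on a listed 0, while Sf3b3 was 7.30-fold higher (42.0 and 5.75 FPKM). Snrpc (3.03-fold), Sf3a2 (2.76-fold), Snrpn (2.86-fold) and Hnrnpa1 (2.07-fold) followed, and none of these 4 stayed at 2-fold under scaling (log2 ratios 0.95, 0.87, 0.89 and 0.50). The lower members were Hnrnph2 (14.9-fold, 0.370 and 5.51 FPKM), Srsf6 (5.53-fold), Sfrs18 (4.27-fold), Snrpa (3.07-fold) and Srsf4 (2.08-fold). As deposited, the abundant hnRNP genes stayed within 2-fold. In the labelled Erk-/- and wild-type MII libraries Hnrnpu had 141 and 132 FPKM, Hnrnpa2b1 123 and 148, and Hnrnpk 177 and 246. Both values of Hnrnpk lie above their own upper bounds. Under scaling, Hnrnpk (log2 ratio -1.003) and Hnrnpc (-1.13) were called lower in the library labelled Erk-/-.

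Before maturation, members were past 2-fold between the libraries of the genotypes no more often than all genes. At GV, 9 of 49 members were at least 2-fold higher in Erk-/- (background 18.4%) and 7 at least 2-fold lower (background 22.9%), with a median of 0.09 against -0.06 for all genes. The 9 higher genes are 18.4% of the members, which equals the background, and the 7 lower are 14.3%. The higher genes were Hnrnph3 (28.3-fold), Hnrnpr (8.91-fold), Srsf9 (7.40-fold), Hnrnpa1 (6.63-fold), Hnrnpu (3.66-fold), Sf3a3 (2.50-fold), Srsf1 (2.35-fold), Hnrnpa2b1 (2.31-fold) and Srsf7, which was listed at 0 in wild type. The lower genes were Hnrnpl (6.51-fold), Snrpa (4.77-fold), Snrpb (4.37-fold), Snrpf (4.05-fold), Snrpc (2.30-fold), Srsf5 (2.25-fold) and Sf3a2 (2.12-fold). Sf3a2 was not called under scaling (-0.96). Of the snRNP genes 4 of 12 were lower and none higher (median -0.72), and of the hnRNP genes 5 of 18 were higher and 1 lower (median 0.27). The wild-type GV library enters both this comparison and wild-type maturation, so the low wild-type GV values of Hnrnph3, Hnrnpr, Hnrnpa1, Hnrnpu and Hnrnpa2b1 stand in both.

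**Figure D4:**
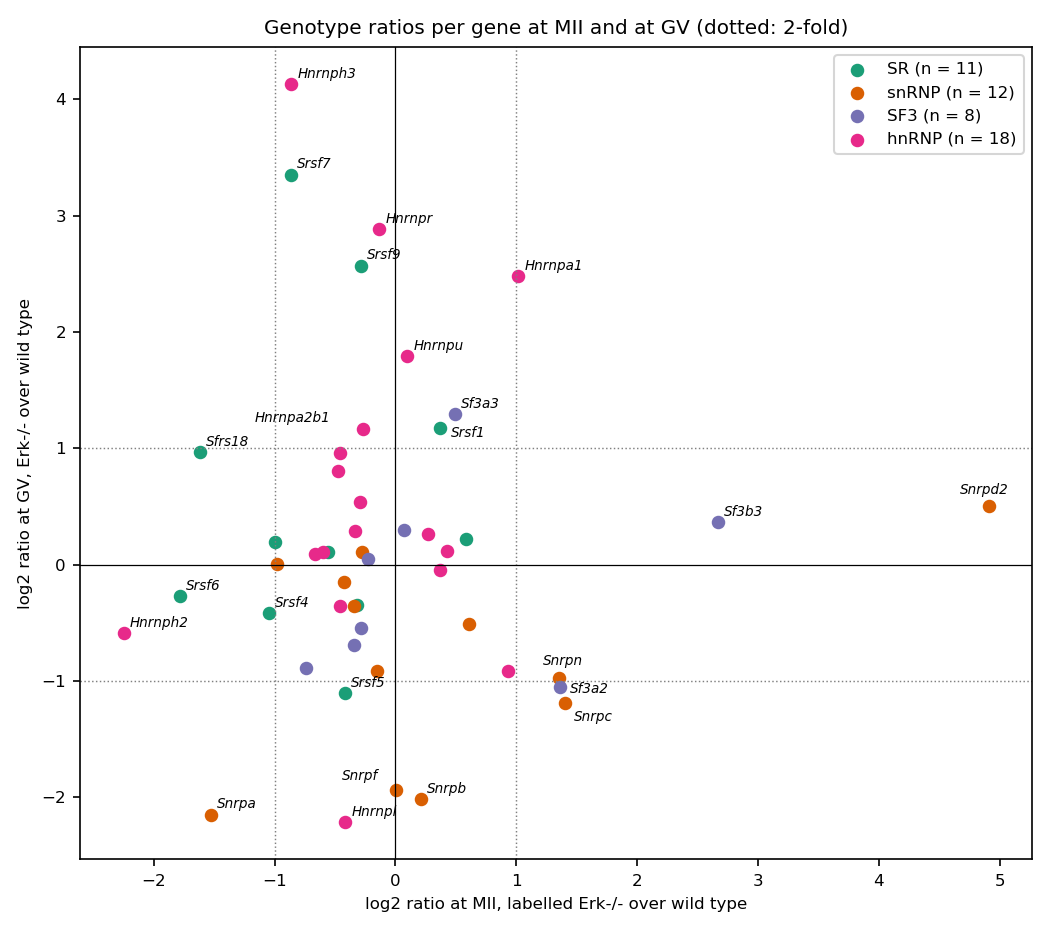
Log2 ratio of labelled Erk-/- over wild type at MII (horizontal) and at GV (vertical) for the 49 genes, coloured by class, with dotted lines at 2-fold and genes past 2-fold on either axis named. Snrpd2 (4.91) and Sf3b3 (2.67) stand alone to the right, and Hnrnph3 (4.13 at GV) at the top. The MII value of Snrpd2 rests on a listed 0 in wild type.

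The difference of the maturation ratios, labelled Erk-/- less wild type, was at least 2-fold positive in 10 of 49 members (background 41.2%) and at least 2-fold negative in 13 (background 18.8%). The median difference was -0.27 on the log2 scale against 0.59 over all genes. Under scaling, 9 members were positive and 23 negative, against 32.7% and 26.6% of all genes, with the all-gene median shifted by -0.49 to 0.10. Of the members past 2-fold, 28.1% were then positive and 43.5% as deposited, and for all genes 55.2% and 68.7%. As deposited, the SR and hnRNP medians were opposite in sign to the median over all genes, while the snRNP median had the same sign as it. SR genes had none positive and 5 of 11 negative (median -0.80) and hnRNP genes 2 of 18 positive and 8 negative (median -0.79). Of the snRNP genes 6 of 12 were positive (50%, against 41.2% of all genes) and none negative (median 0.94, against 0.59). Scaled, the SR genes had none positive and 8 negative, the hnRNP genes 2 positive and 12 negative, and the snRNP genes 5 positive and 2 negative. The median of the SF3 genes was 0.20 with 2 of 8 positive, and turned to -0.42 under scaling, where that of snRNP genes was 0.32. The most positive differences were those of Snrpd2 (4.41), Snrpc (2.59), Sf3a2 (2.41), Snrpn (2.33), Sf3b3 (2.31) and Snrpb (2.22). The most negative were those of Hnrnph3 (-5.00), Srsf7 (-4.22), Hnrnpr (-3.02), Srsf9 (-2.86) and Sfrs18 (-2.59). The differences of Snrpd2 and Srsf7 each rest on a listed 0. As this difference holds all 4 libraries, it repeats the values above and adds no independent measurement.

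The 3′ untranslated regions (3′ UTRs) of the members were then read for elements known to act on mRNA in maturing oocytes. The cytoplasmic polyadenylation element is bound by CPEB1 and, near the 3′ end, directs lengthening of the poly(A) tail during maturation. It was searched as TTTTAT or TTTTAAT on the sense strand, in 1 annotated transcript per gene of GENCODE M21 (build GRCm38), where all 49 members and 9532 of 9990 genes were matched. In the whole 3′ UTR, 37 of 49 members (75.5%) held it, against 60.8% of all genes, and all 11 SR genes did, with 15 of 18 hnRNP, 5 of 8 SF3 and 6 of 12 snRNP genes. Of the members higher at MII in wild type 17 of 18 held it and of those lower 5 of 8, against 80.8% and 48.3% of all genes higher and lower. In the last 100 bases, 4 of 18 higher and 1 of 8 lower members had it, against 36.8% and 11.7% of all genes. Longer UTRs leave more room for a match, and the median UTR length was 1222.5 bases in the higher and 797 in the lower members (1189 and 820 bases for all genes). By class the median length was 1532 bases for SR, 397.5 for snRNP, 461 for SF3 and 1028 for hnRNP genes.

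The 4 sites printed here lie within 100 bases of the end in members called in wild-type maturation, 3 of them higher and the last, Hnrnpd, lower at MII. Each is 30 bases of the transcript strand, 5′ to 3′, written as DNA, with the element in capitals.
Hnrnpa2b1: tttaaatacaagTTTTATaaaataaatact
Snrpd3: ctgtttggtttaTTTTATtgtattaataaa
Sf3b1: ttatattgtatTTTTAATatttgttgtatg
Hnrnpd: atttgcactaaaTTTTATtttctgaaagat
The genes lie on chromosomes 6, 10, 1 and 5 in the order printed. The elements begin 27, 34, 72 and 77 bases before the annotated end, counting the first base of the element and the last base of the transcript. In Hnrnpa2b1 and Snrpd3 the polyadenylation signal aataaa can be read just after it. Hnrnpd, with the same element and a 3′ UTR of 5429 bases, was lower in both MII libraries than in either GV library. A match describes these letters only and is not a tested site. Whether the length of the poly(A) tail changes the measured FPKM itself was not tested.

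Elements of mRNA decay factors were counted in the same way. The AU-rich pentamer ATTTA was found in 36 of 49 members (73.5%) and 67.2% of all genes, and the Pumilio element TGTANATA in 10 of 49 (20.4%) and 25.2% of all genes. Of members lower at MII in wild type 4 of 8 held the Pumilio element, and 2 of 18 of those higher did, whereas over all genes the order was the other way (20.9% of the lower and 31.5% of the higher). Of those 4 lower members, the call of Snrpd2 rests on a listed 0 and that of Hnrnpul2 did not hold under scaling. Across the 49 members, Spearman's rho between 3′ UTR length and the maturation ratio was 0.04 in the libraries labelled Erk-/- and 0.32 in wild type. Across 9532 genes these values were 0.15 and 0.18. For GC content of the 3′ UTR rho was -0.32 in the libraries labelled Erk-/- and -0.38 in wild type for the members, and -0.17 and -0.22 for all genes. These are descriptions across genes that share the same libraries, and genes are not replicates.

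**Figure D5:**
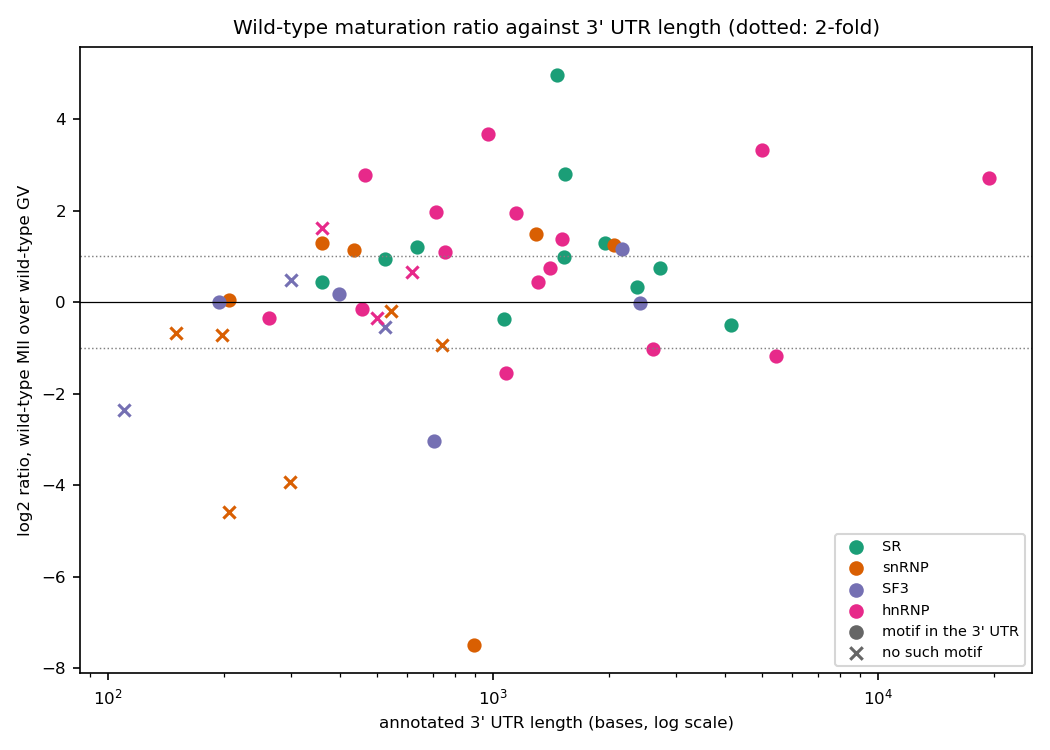
Wild-type maturation ratio (log2, MII over GV) against annotated 3′ UTR length (log axis) for the 49 genes, coloured by class, with circles for genes whose 3′ UTR holds TTTTAT or TTTTAAT and crosses for those without. The 3 lower members without the element (Sf3a2, Snrpb and Snrpc) have 3′ UTRs of 110 to 298 bases.

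Genes of the splicing machinery outside the members were counted in the same way. Of 53 measured spliceosome core genes, 4 were higher and 21 lower (39.6%, median -0.69) in the libraries labelled Erk-/-, against 5 higher and 32 lower (60.4%, median -1.24) in wild type. The backgrounds were 22.9% higher and 35.6% lower in the libraries labelled Erk-/-, and 20.6% higher and 49.6% lower in wild type. Under scaling 20 and 24 of the 53 genes were lower, in labelled Erk-/- and wild type, against 32.1% and 40.4% of all genes. Bud31, a gene of the activated spliceosome, had 0.338 FPKM at MII and 57.4 at GV in the libraries labelled Erk-/-, and in wild type it was listed at 0 at MII beside 54.0 FPKM at GV. Snw1, of the same assembly, had 4.89 and 75.3 FPKM at MII and GV in the libraries labelled Erk-/-, and in wild type it was listed at 0 at MII beside 50.3 FPKM at GV. At MII 17 of the 53 (32.1%) were higher and 3 (5.66%) lower in the library labelled Erk-/- than in wild type, close to the backgrounds of 31.4% and 7.43%. Under scaling 10 were higher and 11 lower, against 24.6% and 17.1% of all genes.

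Over all genes 35.6% were lower and 22.9% higher at MII in the libraries labelled Erk-/-, and 49.6% and 20.6% in wild type. Of 11 snRNP assembly genes (SMN complex and methylosome), 6 were lower (54.5%) and 2 higher (18.2%) in the libraries labelled Erk-/- (median -1.03). In wild type 7 were lower (63.6%) and 2 higher (18.2%), with a median of -2.28. Gemin7, an SMN complex subunit gene, had 44.8 FPKM in the MII library labelled Erk-/- and 3.73 in wild-type MII, and Snupn, the import adaptor gene for snRNPs, had 0.0756 FPKM in wild-type MII beside 69.3 in wild-type GV. Of 8 minor spliceosome genes, 5 were lower (62.5%) and none higher in the libraries labelled Erk-/-, and 4 lower (50%) and 1 higher (12.5%) in wild type. Zcrb1, of the U11/U12 particle, had 40.0 FPKM in the MII library labelled Erk-/- and 0.135 in wild-type MII. Among 21 SR kinase and SR-related genes 5 were higher (23.8%) and 7 lower (33.3%) in the libraries labelled Erk-/-, close to the shares of all genes. Their median was -0.05, which turned to 0.14 under scaling. In wild type 3 were higher (14.3%) and 6 lower (28.6%), with a median of -0.17, which turned to 0.57. Scaled, 6 were higher and 5 lower in the libraries labelled Erk-/-, and 8 higher and 5 lower in wild type. Luc7l3, an SR-related U1 partner gene, had 11.3 FPKM in the MII library labelled Erk-/- and 0.395 in wild-type MII.

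Other hnRNP-like and splicing regulator genes lay near the backgrounds over maturation in the libraries labelled Erk-/- (median -0.26). Of 29 genes 5 were higher (17.2%, background 22.9%) and 11 lower (37.9%, background 35.6%). In wild type 7 were higher (24.1%, background 20.6%) and 7 lower (24.1%, background 49.6%), with a median of 0.30. Under scaling 13 were higher and 7 lower in wild type, against 29.6% and 40.4% of all genes. Ewsr1, of the FET family, had 108 FPKM in wild-type MII and 13.2 in wild-type GV, while Nono, a paraspeckle protein gene, had 15.5 and 141. Syncrip, also known as hnRNP Q and a close relative of Hnrnpr, had 23.8 FPKM in Erk-/- GV and 0.710 in wild-type GV. The exon junction complex, laid down on spliced mRNA, had 2 of 5 genes higher (40%) and 1 lower (20%) in the libraries labelled Erk-/-. In wild type 1 gene of the complex was higher (20%) and none lower. Its core gene Magoh had 633 FPKM in wild-type MII and 484 in wild-type GV.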

How the data were processed

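The authors deposited 1 table of FPKM per library with lower and upper bounds, 23813 rows in each, per the file headers. CASAVA 1.8, TopHat and the mm9 genome are named in the submitters' processing notes, and the sources used here do not give the program that made the FPKM, the treatment of reads with several matches, the strand setting or the read depth. Locus starts in the files count from 0, so 1 was added. Rows were summed per symbol (260 of 23309 symbols were on several rows, no member among them), and 9990 genes whose mean reached 1 FPKM were kept. Ratios are log2((FPKM + 1)/(FPKM + 1)), a scale on which low genes look less different than they are, and 2-fold was the size rule, since 1 library per group allows no test. The median-of-ratios scaling divides each library by its median ratio to the geometric mean of the libraries. Members and lists were chosen with earlier results of these data known. All members could be named, with full values for the 8 highest and 8 lowest ratios of each comparison and the 5 members of highest mean FPKM per class. Genes of the 6 lists outside the members were named by size, up to 4 per list and comparison with at least 10 FPKM in 1 library. A gene of the deletion check is not reported here. The ratio code was tested on simulated data. Half-widths of the bounds had medians of 8.15% to 9.73% of the FPKM and cover error within a library only. 3′ UTRs came from GENCODE M21. Python 3.11.15, pandas 2.3.3, numpy 2.4.6, scipy 1.17.1 and matplotlib 3.10.9 were used. Alternatives were the scaling, an added value of 0.1 FPKM, no filter, a mean of at least 10 FPKM, the highest row per symbol, and leaving out genes listed at 0.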

Additional observations from a re-analysis of the deposited data

Results flagged for a closer look

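Hnrnph3 was, in the values as deposited, the only member at least 2-fold apart in opposite directions over maturation in the genotypes. Under median-of-ratios scaling Sfrs18, Srsf6 and Srsf9 were so too, lower in the libraries labelled Erk-/- and higher in wild type. This direction was called in 2.04% of members and 1.79% of all genes as deposited, and in 8.16% and 2.22% under scaling. The reverse direction was called in 0 members, against 4.47% of all genes as deposited and 3.45% under scaling. The log2 ratio of MII over GV of Hnrnph3 was -1.32 in the libraries labelled Erk-/- and 3.68 in wild type. This difference between genotypes was not tested, because each group has 1 library. Its wild-type ratio rests on 1.55 FPKM in wild-type GV, which is low beside 16.9 to 43.7 FPKM in the remaining 3 libraries.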

How the results depend on the processing

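Median-of-ratios scaling moved the counts of members most. Over wild-type maturation it gave 28 higher and 5 lower members (18 and 8 as deposited), at MII between genotypes 2 higher and 14 lower (6 and 5), and for the difference of maturation ratios 23 negative (13). Of all genes, scaling left 29.6% higher and 40.4% lower over wild-type maturation. At MII between genotypes it left 24.6% and 17.1%, and for the difference 26.6% negative. Asking for a mean of at least 10 FPKM left 42 members, of which 7 were lower over maturation in the libraries labelled Erk-/- (12 before) and 2 were lower at MII in the library labelled Erk-/- than in wild type (5 before). That filter removes low genes by construction. The other totals over all members stayed within 1.5 times under all 6 alternatives, while counts within a class moved more under scaling, as with SR genes higher over wild-type maturation (9, against 4) and hnRNP genes lower at MII (5, against 1). Of 80 single ratios of 40 members, 0 that were past 2-fold turned direction. These were the 8 highest and 8 lowest ratios of each comparison, with few near 0, so this does not show that directions hold in general. In wild-type maturation, for example, the ratios of Srsf1 (-0.50 to 0.25) and Srsf2 (-0.37 to 0.44) turned positive under scaling. Of the 80 ratios, scaling took 8 below 2-fold and brought 6 past it. The 6 were Hnrnpc, Hnrnph3, Sf3b1, Snrpd1, Srsf2 and Srsf7, all lower at MII in the library labelled Erk-/-. An added value of 0.1 FPKM brought Snrpn at GV (-1.09) and Srsf2 at MII (-1.02) past 2-fold. No paired analysis was possible because each group has 1 library and no replicate numbers to pair, and no library could be left out in turn. Depth is unknown, so counting error could not be set beside any ratio.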
